A study of Caenorhabditis elegans with 2 samples.

Results

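Genes for ubiquitin-activating and ubiquitin-conjugating enzymes, cullins, Skp1-related adaptors and deubiquitinases were examined for LSY-2 peaks at their promoters. The group was defined by name alone: the protein-coding genes of the WBcel235 annotation whose names begin with uba, ubc, cul, skr, usp or ubh. It held 63 of 19973 protein-coding genes, namely 3 uba, 21 ubc, 6 cul, 20 skr, 9 usp and 4 ubh genes. The data were ChIP-seq peak lists for LSY-2, a zinc finger transcription factor, from 2 biological replicates of whole Caenorhabditis elegans at the L4 larval stage. Every worm came from strain OP367, with the genotype unc-119(tm4063) III and the integrated transgene wgIs367, which adds a GFP-FLAG tag to the C terminus of LSY-2. The worms were of mixed sex and of unknown age, and no strain without the tag and no other condition was analysed here. All values therefore come from 1 transgenic line, and the peak lists cannot tell in which cells LSY-2 was bound.

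Ubiquitin is attached to proteins in a relay. An activating enzyme (E1) charges ubiquitin and hands it to a conjugating enzyme (E2), and a ligase then directs it to a substrate. Cullins are the scaffolds of the largest class of ligases; CUL-1 reaches its substrates through an Skp1-related adaptor and an F-box protein, and cullins are switched on by attachment of the ubiquitin-like protein NEDD-8. Deubiquitinases of the usp and ubh families remove the tag, some of them at the proteasome. The skr family is enlarged in C. elegans, where many small Skp1-related genes lie in clusters.

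LSY-2 summits lay at the promoters of 24 of the 63 genes (38.1%), against 19.5% of all protein-coding genes. The promoter window spans 1000 bp before and 200 bp after any annotated transcript start of a gene, and a summit is the position of highest enrichment in a peak. The peaks were those of the list that the authors thresholded by the irreproducible discovery rate (IDR), a measure of agreement between replicates. The share differed between the subfamilies, several of which hold few genes. All 3 uba genes had a summit, as did 6 of 9 usp genes (66.7%), 3 of 6 cul genes and 9 of 21 ubc genes (42.9%). Of the 4 ubh genes, 1 had a summit. The 3 uba, 6 cul and 4 ubh genes are too few to set these subfamilies apart from all genes. Of the 20 skr genes, 2 had a summit, a share below that of all genes. This depended on the window, since 5 had one with 2000 bp upstream, against 23.9% of all genes. Leaving out skr, the subfamily with the lowest share, necessarily raises the share of the rest, to 22 of 43 members (51.2%). These counts were not tested, since the group was proposed with results of these data known and some of its members are neighbours that share sequence and windows.

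**Figure D1:**
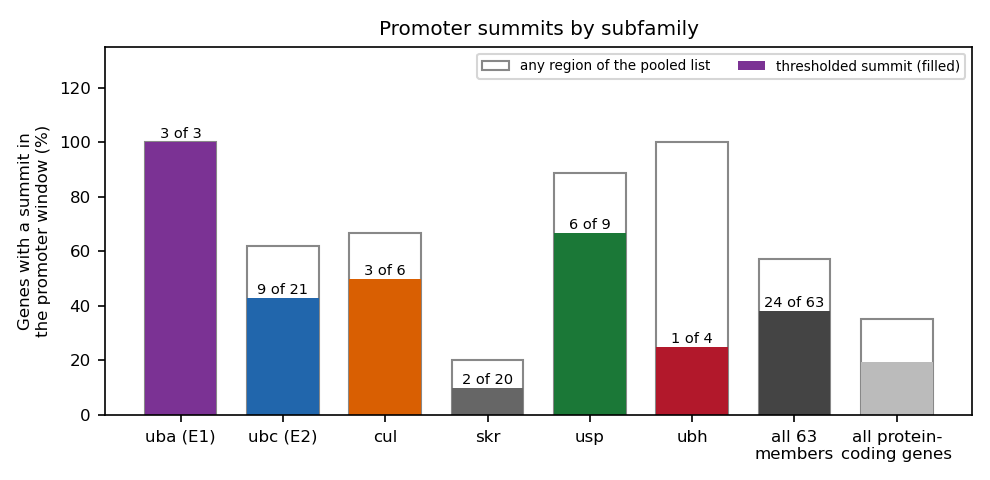
Share of genes, in percent, with a summit in the promoter window for each subfamily, for all 63 members and for all protein-coding genes. Filled bars count summits of the thresholded list and outlined bars count any region of the pooled list; the skr bar, at 2 of 20, is the only filled bar of a subfamily below the 19.5% of all genes.

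The signal at the 24 genes was moderate. The signal of a peak is the value deposited by the authors, on a scale that no source used here states. Its median over the members with a summit was 208, against 170.1 over all 3897 protein-coding genes with one, and 13 of the 24 lay above that of all genes. The thresholded list ran from 59.9 to 19064.5 in signal. Members spanned 79.5 at ubc-20 to 1567 at uba-2, and 1 of them, uba-2, ranked among the upper 5% of genes with a summit (percentile 95.3). By subfamily the medians were 221 for uba, 204 for ubc, 99.7 for cul, 110 for skr and 233 for usp genes. The cul and skr genes with a summit were all below the median of all genes with one, whereas 5 of 6 usp genes were above it.

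Sequence at the summits was read from the RefSeq WBcel235 genome, which is the ce11 sequence. The words GAGAGA and GACGCA, taken from earlier results of these data, were searched on both strands in the summit base and the 50 bp on either side. GACGCA was present at 5 of the 24 summits (20.8%), namely uba-2, ubc-3, cul-3, skr-1 and ubh-4, against 16.1% of all 3361 promoter summits. GAGAGA was present at 2 (8.33%), ubc-3 and skr-1, against 23.1%. With 100 bp on either side, GACGCA was present at 9 summits (37.5%, against 20.9% of promoter summits) and GAGAGA at 5 (20.8%, against 35.1%). A further pair of words that overlap each other, GCAAACAC and GTACGCA, was chosen after the members' summit sequences were read. GCAAACAC had also been named in an earlier report. Such a choice favours a higher share at the members than at all promoter summits, so the shares below are a description only. GTACGCA was present at uba-2, ubc-18, ubc-19 and usp-39 (16.7%, against 5.09% of promoter summits). GCAAACAC was present at uba-2, ubc-19 and usp-39 (12.5%, against 6.84%). In these 3 the words were joined in the same run of 12 bases, GTGTTTGCGTAC on the strand of ubc-19 and usp-39, which 63 promoter summits held (1.87%). Such a match describes the letters present and is not a measured binding site. The mean GC content of these stretches was 47.5% at the 24 summits and 44.2% at all promoter summits.

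The sequences below show the words in place at the summits of 4 of these genes, outside annotated exons, each read 5′ to 3′ on the strand of the named gene. Capitals mark GACGCA, GCAAACAC and GTACGCA or their reverse complements. They span chrV:177022-177122 for cul-3, chrII:2565051-2565151 for usp-39, chrV:18689852-18689952 for ubc-19 and chrIII:7068788-7068888 for ubc-18.
cul-3: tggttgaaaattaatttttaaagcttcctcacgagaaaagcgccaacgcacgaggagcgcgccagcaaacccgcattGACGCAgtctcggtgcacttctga
usp-39: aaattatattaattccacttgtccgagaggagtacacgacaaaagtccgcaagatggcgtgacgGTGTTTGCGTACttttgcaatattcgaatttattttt
ubc-19: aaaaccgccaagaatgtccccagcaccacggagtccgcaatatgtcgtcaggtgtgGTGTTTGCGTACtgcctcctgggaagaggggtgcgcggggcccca
ubc-18: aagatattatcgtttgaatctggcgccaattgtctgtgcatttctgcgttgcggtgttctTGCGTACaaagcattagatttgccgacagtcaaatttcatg
The usp-39 and ubc-19 stretches share their run of 12 bases on the same strand, with signals of 553 and 126 at the summits. The ubc-18 stretch holds GTACGCA as its reverse complement without the second word, and cul-3 holds GACGCA.

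The strongest peak of the group lay at an activating enzyme gene, at chrI:12741015-12741493. The summit at uba-2, which encodes a subunit of the activating enzyme for the ubiquitin-like protein SUMO, reached 936 in replicate 1 and 654 in replicate 2, at ranks 114 and 116 of the 30000 regions in each list. It lay 314 bp upstream of uba-2 and 1 bp from the 5′ end of vps-25, a gene of the ESCRT-II sorting complex on the opposite strand, so the peak cannot be given to either gene alone. The summit at uba-5, which encodes the activating enzyme for the ubiquitin-like protein UFM1, had 138 in replicate 1 and 87.7 in replicate 2. It fell inside the annotated gene, 397 bp upstream of an internal transcript start, and also in the window of clec-53. Relative to the closest uba-5 transcript start, the summit lay 271 bp downstream, outside the window of that start. The summit at uba-1, the only activating enzyme for ubiquitin itself in C. elegans, lay 297 bp upstream of that gene and in no other window. Its signal was 97.5 in replicate 1 and 73.7 in replicate 2, and its thresholded value of 169 was close to the median of all genes with a summit. All 3 peaks were among the 5944 strongest of each replicate, which is the length of the thresholded list.

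Among the conjugating enzymes, the strongest summits were at ubc-7, ubc-25 and ubc-6. The summit at ubc-7, whose yeast namesake acts in degradation at the endoplasmic reticulum, had 228 in replicate 1 and 207 in replicate 2 (thresholded signal 436, rank 489) at chrIII:9631343-9631615, 318 bp upstream. The summit at ubc-25 had 206 in replicate 1 and 118 in replicate 2 (319, rank 774), 310 bp upstream. The gene ubc-6 had 2 summits, the stronger with 166 in replicate 1 and 123 in replicate 2 (299, rank 849) at 304 bp upstream, and a weaker one (176) at 99 bp. Of the family members that conjugate ubiquitin-like proteins, ubc-9, the SUMO enzyme, had a thresholded signal of 240.1, and ubc-12, the NEDD8 enzyme, had 154. The others were ubc-3, the homologue of the yeast cell cycle enzyme Cdc34 (204), ubc-18 (148), ubc-19 (126) and ubc-20 (79.5). Replicate 2 exceeded replicate 1 at 2 of these genes, with 128 against 118 for ubc-9 and 49.2 against 42.2 for ubc-20.

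Of the 6 cullin genes, cul-1, cul-2 and cul-3 had a summit. The summit at cul-3, whose product pairs with BTB-domain adaptors such as MEL-26, had 107 in replicate 1 and 60.3 in replicate 2 (thresholded signal 164, rank 1975), 345 bp upstream. The summit at cul-1, the scaffold of SCF ligases, had 43.1 in replicate 1 and 58.5 in replicate 2 (99.7, rank 3463), 126 bp upstream. The summit at cul-2 lay downstream of its nearest transcript start and also in the window of the cilium gene dyf-2. It had 65.4 in replicate 1 and 24.8 in replicate 2 (87.9, rank 3967). Its rank of 7020 in replicate 2 lies beyond the 5944 strongest, which made cul-2 the only one of the 24 genes without support at that depth in both replicates. The genes cul-4, cul-5 and cul-6 had no thresholded summit in the window; the nearest to cul-5 lay 1057 bp upstream (61.0), just outside it.

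Of the Skp1-related genes, skr-1 and skr-19 had a summit. SKR-1 is, with SKR-2, the adaptor best known to work with CUL-1. The skr-1 summit lay 251 bp upstream, between skr-2 and skr-1, which follow each other on the same strand, and reached 98.4 in replicate 1 and 34.5 in replicate 2 (thresholded signal 129, rank 2635). The log2 difference of 1.51 was the largest among the 24 summits. The window of skr-2 held no region in any of the lists. The summit at skr-19 lay 562 bp upstream and had 56.8 in replicate 1 and 42.5 in replicate 2 (90.7, rank 3848). Thus both skr summits were below the median of all genes with a summit.

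Deubiquitinases had some of the strongest peaks of the group. The only ubh summit was at ubh-4, whose product is known to act at the proteasome, with 402 in replicate 1 and 251 in replicate 2 (thresholded signal 656, rank 284) at chrII:8039446-8039862. It lay 28 bp upstream of ubh-4, in the 204 bp between that gene and algn-6 on the opposite strand. The summit at usp-39, the homologue of a human splicing factor, had 305 in replicate 1 and 245 in replicate 2 (553, rank 353) at 174 bp upstream, at the sequence printed above. The summit at usp-4 had 157 in replicate 1 and 142 in replicate 2 (298, rank 853), 697 bp upstream. The summit at usp-3 had 125 in replicate 1 and 108 in replicate 2 (237, rank 1206), 221 bp upstream, and also lay in the window of rps-6, a ribosomal protein gene. The remaining ones were usp-14, the homologue of a proteasome-associated human deubiquitinase (230.0), usp-48 (212) and usp-5 (124). The gene usp-14 had a second summit 940 bp upstream with a signal of 159.

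**Figure D2:**
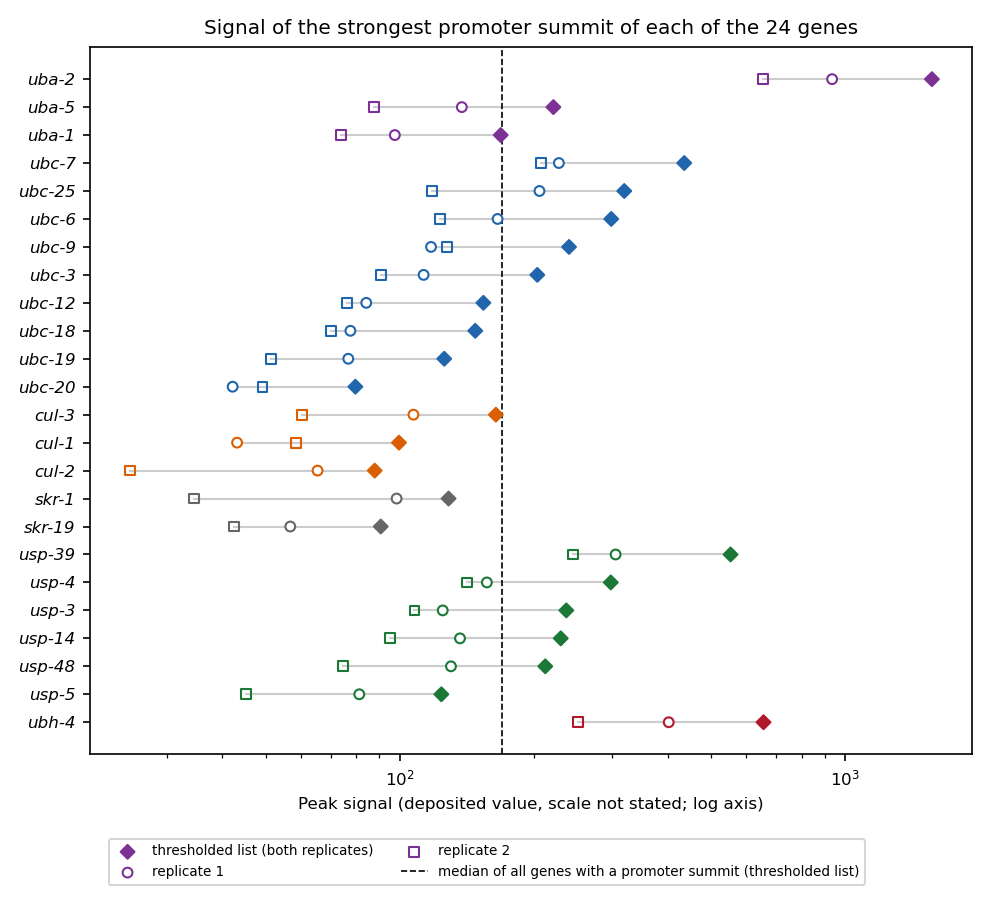
Signal of the strongest promoter summit of the 24 genes on a log axis, as the authors deposited it for the thresholded list (diamonds), replicate 1 (circles) and replicate 2 (squares), with the subfamilies in colour. The replicate lists give lower values than the list from both replicates, and replicate 1 exceeds replicate 2 at 21 of the 24 summits.

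The list was itself chosen by agreement between the replicates, and all 24 summits had a counterpart within 200 bp in each replicate list. Of these, 23 were among the 5944 strongest of both. The mean log2 difference, replicate 1 minus replicate 2, was 0.46 ± 0.45 (SD, n = 24 summits), against 0.53 ± 0.61 (SD, n = 5823) over all matched thresholded summits. Thus 21 of the 24 (87.5%) were higher in replicate 1, against 85.9% of all matched summits. Using the 5944 strongest peaks of 1 replicate in place of the thresholded list gave 25 members with a summit in replicate 1 and 25 in replicate 2, against 19.7% of all genes in each replicate. Requiring a summit among these peaks in both gave 23, against 17.1%. Replicate 1 added ubc-8. Replicate 2 added ubh-2 and skr-16 and lost cul-2. The region at skr-16 stood out: 262 bp upstream of the gene, replicate 2 gave a signal of 81.1 (rank 1668), while replicate 1 and the pooled list gave no region anywhere in the window.

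Of the 39 members with no thresholded summit, 12 had a region in the pooled list, which holds 30000 peaks and background regions, and 27 had none. In all, 36 members (57.1%) had a region of any strength, against 35.1% of all genes. The strongest of the 12 was at usp-46, a deubiquitinase studied for its role at synapses, with a signal of 53.5 (rank 6681) just under the lowest thresholded value of 59.9. It was followed by ubh-1 (42.3), ubc-8 (33.4), skr-18 (30.9) and ubh-3 (25.5). The others, skr-20, ubc-15, usp-50, ubh-2, cul-5, ubc-13 and ubc-1, lay between 10.5 and 22.7. Their low signal is in the range where the list also holds background, so they are not called peaks here. The genes ubh-1, ubh-2 and ubh-3 follow each other on chromosome V with gaps of 92 bp and 103 bp, and a thresholded summit (102) lay 582 bp downstream of the ubh-1 start and 1010 bp upstream of the ubh-2 start, outside the windows of all 3. No region of the pooled list lay in the windows of ubc-14, ubc-16, ubc-17, ubc-21, ubc-22, ubc-23, ubc-24 and ubc-26, of cul-4 and cul-6, of usp-33, or of skr-2 to skr-10, skr-12 to skr-17 and skr-21. Thresholded summits lay beyond the window of some members, at 1421 bp upstream of skr-18 (239), 1541 bp of ubc-8 (291), 1548 bp of ubc-13 (60.0) and 1962 bp of skr-16 (94.3).

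**Figure D3:**
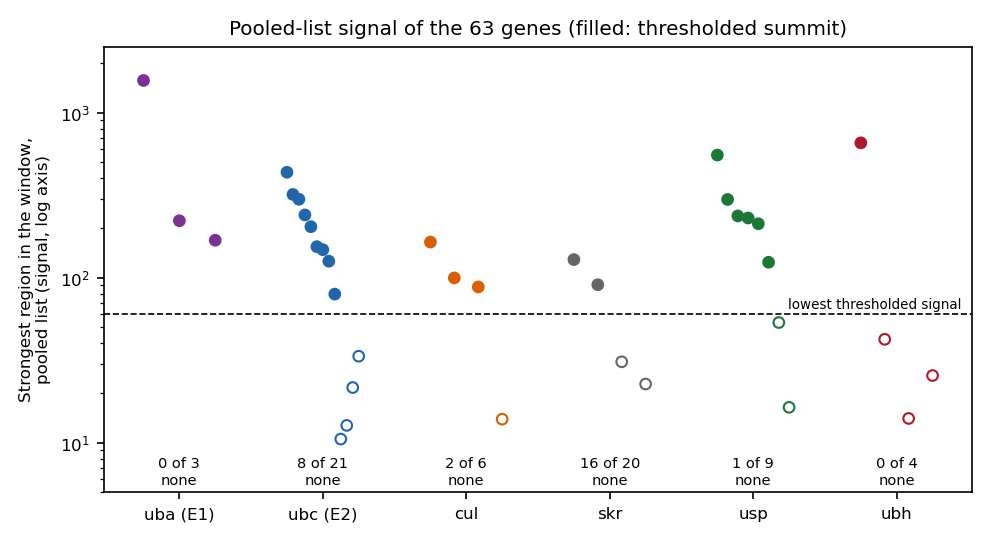
Signal of the strongest pooled-list region in the promoter window of each member, on a log axis, by subfamily. Filled points are thresholded summits and open points are the 12 members below the threshold; the numbers at the bottom give members with no region, 16 of 20 in the skr family and 8 of 21 in the ubc family.

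The skr genes are clustered along the genome. Of the 20, 7 lie on chromosome IV, 6 on V, 3 on X, 2 on I and 2 on II. The pairs skr-7 and skr-14, skr-8 and skr-12, and skr-9 and skr-13 point away from each other across gaps of 851, 1439 and 957 bp, so their windows overlap and they do not count as separate observations. On chromosomes IV and V, 18.5% and 11.3% of all genes had a summit, below the 28.6% on I and 31.7% on III. On IV and V together, 0 of 13 skr genes and 5 of 14 other members had one. On the chromosome arms, taken as the outer 25% at either end, 0 of 12 skr genes and 11 of 20 other members had a summit, against 16.1% of all genes there. In the centres between them, 2 of 8 skr genes and 11 of 23 other members did, against 22.3%. The skr genes are also short, with a median length of 582 bp against 2027 bp over all genes, and 18 of the 20 (90.0%) have 1 annotated transcript start, against 72.6% of all genes. The part of position and gene structure in the skr count was not tested. The genes skr-3, skr-4, skr-5 and cul-6, known to act together in the response to intracellular pathogens, all lacked a region in the pooled list.

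At each of the 9 conjugating enzyme genes with a summit, the strongest lay 252 to 321 bp upstream of the gene, except at ubc-19 with 140 bp. That range was read from the same summits. A band of 240 to 330 bp, which encloses it, held 11 of the 24 members (45.8%), against 14.7% of all genes with a summit. Since the band was drawn around the ubc summits, these genes raise that share, which is a description only. Outside the ubc family, only uba-2 (314 bp), uba-1 (297 bp) and skr-1 (251 bp) fell in it. At ubc-12 and ubc-18 the summit lay nearer to the 5′ end of another gene. Over all 24 members the median was 292 bp upstream, with quartiles of 209 and 327 bp, against a median of 226 bp and quartiles of 123 and 424 bp over all genes with a summit. The strongest summits of the usp genes lay 155 to 697 bp upstream. The second summits of ubc-6, at 99 bp, and usp-14, at 940 bp, are outside these ranges. Where several transcript starts were annotated, the distance is to the nearest one whose window held the summit.

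**Figure D4:**
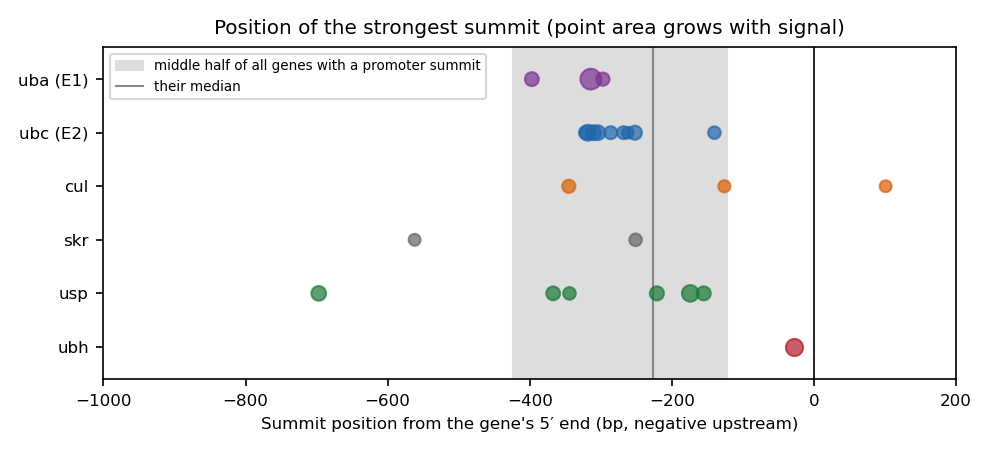
Position of the strongest summit of each of the 24 genes relative to its 5′ end in bp, by subfamily, with point area growing with signal. Grey marks the range between the quartiles of all genes with a promoter summit (123 to 424 bp upstream) and the line their median. Of the 9 ubc points, 8 fall between 252 and 321 bp upstream, a range read from the points themselves.

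At 17 of the 24 genes (70.8%) the upstream neighbour was on the opposite strand, against 57.1% of all genes with a summit. At 13 of the 24 genes (54.2%) the summit also fell in the window of another protein-coding gene, against 45.9% of all genes with a summit. The partners were vps-25 at uba-2, clec-53 at uba-5, aka-1 at ubc-6, rbm-3.2 at ubc-12, R01H2.8 at ubc-18, Y69H2.7 at ubc-19 and mxl-2 at ubc-20. They were dyf-2 at cul-2, rps-6 at usp-3, vnut-1 at usp-14, F30A10.9 at usp-48, nse-1 at usp-5 and algn-6 at ubh-4. In 5 cases (uba-2, ubc-12, ubc-18, ubc-19 and usp-5) the partner's 5′ end was nearer to the summit. Assigning each summit only to whichever gene starts closest to it left 19 members (30.2%), against 15.1% of all genes. No tRNA, snoRNA, snRNA, rRNA, microRNA or lincRNA gene lay within 200 bp of a summit of the 24 genes.

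The count of members followed the width of the window, as that of all genes did. With 500 bp upstream, 22 members had a summit, against 16.1% of all genes, and with 2000 bp 31 did, against 23.9%. The wider window added ubc-8, ubc-13, cul-5, ubh-2, skr-16, skr-18 and skr-20. It so raised the skr count to 5 of 20, a share no longer below that of all genes. The summit counted for skr-20 is the one described at skr-19. Among the 2972 strongest thresholded peaks, 20 members had a summit, against 13.4% of all genes, and cul-1, cul-2, skr-19 and ubc-20 dropped out. Counting any overlap of the peak with the window gave 26 members, against 20.3%, and using the most upstream transcript start of each gene gave 23, against 18.1%.

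Other genes of the ubiquitin system, from lists written down for this comparison, carried summits at 49 of 96 genes (51.0%), against 19.5% of all protein-coding genes. Their median signal was 197, against 170.1 over all genes with a summit. Ubiquitin, ubiquitin-like proteins and their other enzymes had 10 of 15 (66.7%), led by ubq-2, which encodes ubiquitin fused to a ribosomal protein (4473, shared with frg-1), smo-1, which encodes SUMO (718), and the E2 gene let-70 (486, shared with klc-1). In the NEDD8 pathway, summits lay at dcn-1, whose product promotes attachment of NEDD8 to cullins (420, shared with evl-14), at rfl-1, part of its activating enzyme (261, shared with col-8), and at ned-8 itself (183, shared with hpo-35), while ula-1, the partner of RFL-1, had no summit. The partners and regulators of cullins had 10 of 25 (40.0%), among them the RING subunit gene rbx-1 (462), the F-box gene lin-23 (329) and wdr-23 (317). Of the COP9 signalosome, which removes NEDD8 from cullins, csn-1 had a summit (244, shared with phf-14) and csn-2 to csn-6 had none. Other ligases had 16 of 31 (51.6%), led by the HECT genes eel-1 (2002) and wwp-1 (1206) and by ari-1.1 (992). Other deubiquitinases and isopeptidases had 7 of 13 (53.8%), led by otub-2 (436). CDC-48, the segregase that pulls ubiquitylated proteins apart, and its cofactors had 6 of 12, led by cdc-48.1 (3511), whose paralogue cdc-48.2 had 146.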

How the data were processed

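The peak lists come from ChIP-seq of tagged LSY-2 in 2 biological replicates of L4 worms, and all values start from the files the authors deposited. Per the deposited notes, reads aligned to ce11 were set against a control to give each replicate list and the pooled list (30000 regions each), from which IDR kept the thresholded list (5944 peaks). No source used here names the aligner, the peak caller or the IDR threshold. The control was not analysed here. Each peak has a deposited signal value of unstated scale, used within a list and, on the log2 scale, between the replicates. The deposited -log10 q-value is capped at the highest value in every thresholded peak and was used only to describe the 12 members with a region below the threshold. Depth per library is unknown from peak lists.

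Genes and transcript starts came from Ensembl release 115 (WBcel235), whose sequence is ce11, and no peak ended beyond a chromosome. The ce10 lists were not used here, and no coordinates were converted. Each gene was given the strongest summit in its windows, and replicate summits were matched within 200 bp. The middle of a chromosome was taken as 25 to 75% of its length. No test was made: there is 1 group, and the members and lists were chosen with earlier results of these data known. Sequences were printed for the strongest summit holding a word, outside exons and chromosome I, in the ubc (ubc-18), cul and usp families, and ubc-19 was added because it shares its run of bases with usp-39. Every member was named, with replicate values for the 3 strongest of each subfamily and for every uba and cul gene. In the lists of other genes, examples were chosen after their values were seen, and the name duo-2 matched no gene. Summit assignment was checked on simulated data. Scripts ran under Python 3.11.15 with pandas 2.3.3, numpy 2.4.6, matplotlib 3.10.9 and SciPy 1.17.1.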

Additional observations from a re-analysis of the deposited data

How the results depend on the processing

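Of 73 values recomputed under alternatives, 60 stayed within the limits set for them (within 1.5 times the main value for counts), and 13 moved. The count of all members, the uba, ubc and usp counts and the mean replicate difference (0.49 with summits matched within 100 bp) were among the 60 under every alternative run. The skr count of 2 became 1 with 500 bp upstream, 5 with 2000 bp, 1 among the 2972 strongest peaks and 4 in the whole pooled list. The cul count of 3 became 1 among the 2972 strongest peaks. The ubh count of 1 became 2 with 2000 bp, 2 with any overlap of the peak and 4 in the whole pooled list, and was 1 to 2 with either replicate alone. The median signal of 208 became 169 with 2000 bp and 81.1 to 113.2 with either replicate alone. The replicate lists give lower values at the same summits than the list from both replicates, so their medians are not comparable with 208. No median over all genes is given for these alternatives, so they do not show whether the members still exceeded all genes. The share of summits with GAGAGA or GACGCA, 20.8% within 50 bp of the summit (33.6% of all promoter summits), was 45.8% within 100 bp (45.5% of all promoter summits); GACGCA alone moved to 37.5% and GAGAGA alone to 20.8%, against 20.9% and 35.1% of all promoter summits. In the small subfamilies a change of 1 gene is enough for a count to move. No paired analysis was possible because there is 1 group of samples.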
